A study of Homo sapiens with 12 samples.

Results

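The 32 genes described here are the NF-kB transcription factors, their inhibitors and feedback regulators, and inflammatory genes that NF-kB is known to drive. They were listed by name from textbook knowledge of the pathway, with earlier results of these data known, and all 32 were found among the 60754 genes of the deposited tables. RNA sequencing was performed on 2 human acute myeloid leukemia (AML) cell lines, HL-60 and Molm-14, after 36 h with duocarmycin SA (DSA), a natural product that alkylates adenines in the minor groove of DNA. HL-60 cells received 112.7 or 500 pM DSA and Molm-14 cells received 11.1 or 100 pM DSA, and the controls of each line are labelled as having had no treatment, while the study's methods describe a vehicle. Each of the 6 groups had 2 libraries, and nothing in the sources says whether the 2 came from separate cultures, so p-values measure the spread between these libraries, which may be technical. HL-60 was grown in IMDM and Molm-14 in RPMI with a lower share of serum, so cell line and medium cannot be told apart.

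NF-kB is a family of dimeric transcription factors built from the products of NFKB1, NFKB2, RELA, RELB and REL. In resting cells the dimers are held in the cytoplasm by IkB proteins. In the canonical route, receptors for TNF, IL-1 or microbial products, or the kinase ATM after DNA breaks, activate the IKK complex, which marks IkBα for destruction and frees dimers of RELA and p50, the processed product of NFKB1. In the non-canonical route, the kinase NIK, normally kept scarce by TRAF2, TRAF3 and the cIAP proteins, drives processing of the NFKB2 product p100 to p52, which pairs with RELB. Targets of NF-kB include its own inhibitors and subunits, so that signalling is followed by feedback, and in myeloid cells the factor is best known for cytokine, adhesion and survival genes.

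The libraries held between 21177424 and 63927449 expected counts. The 4 markers fixed for Molm-14 were all lower in untreated HL-60, over 2-fold each, while of the 5 granule markers fixed for HL-60 only MPO and PRTN3 were higher there and ELANE, AZU1 and CTSG were lower, so most of that list went against the label. HOXA9, a homeobox gene of MLL-rearranged leukemia, averaged 0.0558 CPM (counts scaled to a common library total) in untreated HL-60 and 119 CPM in untreated Molm-14 cells, while MPO, the granule peroxidase of promyelocytes, averaged 15700 and 149 CPM. The share of counts from mitochondrial genes rose with dose in both lines and was 5.46% and 4.64% in HL-60 at 500 pM, against 2.22% and 2.47% in HL-60 controls. It was 4.09% and 2.72% in Molm-14 at 100 pM, against 1.47% and 1.68% in Molm-14 controls. In bulk RNA, a change in the level per cell and a change in which cells survive cannot be told apart. Levels of 1 gene across libraries are given as CPM scaled by the trimmed mean of M-values (TMM). Differences are log2 fold changes of edgeR's quasi-likelihood test, each with its standard error (SE), and a change is called at an adjusted p under 0.05 over all 13429 genes tested.

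κB sites are shown first, because they are the sequences that NF-kB dimers bind. Of the 32 members, 28 had a promoter window in RefSeq (GRCh38.p14), which runs from 250 bases before to 50 bases after a transcript start, all but RELB, NFKBIE, CD40 and IER3. The consensus κB motif was searched by its letters on both strands, and matches that overlap were counted separately. It was present for 14 of the 28 members (50%), against 13.3% of all genes with a RefSeq window and 17.3% of the genes tested. Per window, the shares were 37% for members and 11.3% for all genes. Sites of 30 bases are printed for members whose RNA rose over 2-fold in HL-60 (NFKB2, NFKBIZ, TNFAIP3, BIRC3 and LTB) and for members with a site whose RNA moved little or fell (NFKBIA, REL and NFKBIB). Capitals mark the match, each sequence runs 5′ to 3′ on the strand of its gene, and coordinates are hg38.
NFKB2, chr10:102394461-102394490, plus strand: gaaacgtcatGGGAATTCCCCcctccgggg
NFKB2, chr10:102395674-102395703, plus strand: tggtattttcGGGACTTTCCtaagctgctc
NFKBIZ, chr3:101827757-101827786, plus strand: tttttggtctGGGAATTTCCagtgtgcaga
TNFAIP3, chr6:137867182-137867211, plus strand: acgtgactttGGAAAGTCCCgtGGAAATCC
BIRC3, chr11:102317275-102317304, plus strand: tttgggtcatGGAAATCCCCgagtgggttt
LTB, chr6:31582492-31582521, minus strand: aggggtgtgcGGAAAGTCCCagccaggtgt
NFKBIA, chr14:35404811-35404840, minus strand: tgactggcttGGAAATTCCCcgagcctgac
REL, chr2:60881517-60881546, plus strand: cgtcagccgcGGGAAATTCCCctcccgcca
NFKBIB, chr19:38899931-38899960, plus strand: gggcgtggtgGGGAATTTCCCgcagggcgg

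In GENCODE 44 both NFKB2 sites and those of REL, NFKBIB and LTB lie in an annotated exon of their own gene. The NFKBIZ site lies in an exon annotated to its upstream neighbour NXPE3, the TNFAIP3 and BIRC3 sites lie inside overlapping non-coding genes but outside exons, and the NFKBIA site lies in no annotated gene. The NFKBIZ site begins 223 bases before its RefSeq start and the NFKBIA site 81 bases before. A match was present in 7 of the 13 genes with a window that rose over 2-fold in HL-60 at 500 pM (53.8%) and in 7 of the other 15 (46.7%). Per window the shares were 47.6% (10 of 21) and 28% (7 of 25). Windows of the same gene can overlap and repeat a site, as those of LTB do, so window shares are not of separate observations. A match is a description of letters and no sign of binding, which was not measured here.

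In HL-60 cells at 500 pM DSA, most of the NF-kB genes were upregulated. Of the 30 members that passed the filter on low counts, 23 rose (76.7%), against 35.8% of all genes tested. Only 5 fell (16.7%), against 37.8% of all genes, and REL and TNF did not pass. Over 2-fold, 16 members rose (53.3%), against 16.5% of all genes, and none fell by that much. The median change was 1.23 on the log2 scale over the members and 0.00 over all genes tested. LTA reached the count minimum only in the HL-60 libraries at 500 pM, so it entered the test only through the group where it was high, and IL6 and G0S2 did not enter it. Under scaling by total counts alone the all-gene median was 0.18 in this comparison, and 23 members rose and 1 fell (SOD2).

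**Figure D1:**
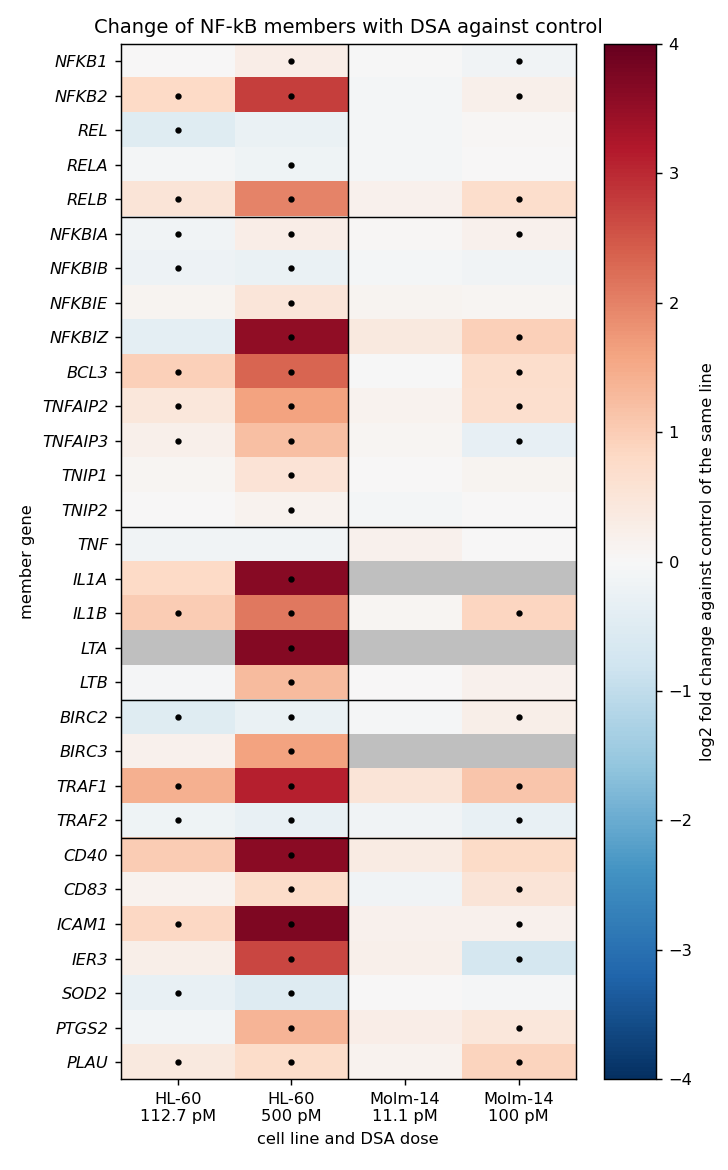
Log2 fold change of the 30 tested members (rows, by role) in DSA-treated cells against controls of the same line, for HL-60 (left columns) and Molm-14 (right columns). Black dots mark an adjusted p under 0.05 and grey cells mark genes under 10 counts in every library of both groups. The HL-60 column at 500 pM holds 23 increases, and the Molm-14 column at 11.1 pM holds no call.

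Among the 5 subunits, the non-canonical pair stood out. NFKB2, which encodes p100 and p52, had 73.1 and 66.6 CPM in HL-60 at 500 pM, against 10.6 and 10.0 CPM in HL-60 controls. The groups lay far apart, and the change was 2.76 ± 0.06 (SE) on the log2 scale, a 6.77-fold increase (adjusted p = 6.2e-17). RELB, the partner of p52, had 23.6 and 20.5 CPM at 500 pM, against 5.12 and 5.95 CPM in controls, a 3.92-fold increase (log2 1.97 ± 0.11, adjusted p = 6.0e-12). The canonical subunits moved little. NFKB1, the precursor of p50, had 67.3 and 62.8 CPM at 500 pM and 53.2 and 53.6 CPM in controls, a 1.21-fold increase (adjusted p = 3.6e-05).

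RELA, which encodes p65, had 90.0 and 85.7 CPM in HL-60 at 500 pM, against 99.9 and 96.0 CPM in controls. Both treated libraries lay below both controls and the fall was 0.16 on the log2 scale (adjusted p = 0.0024). The direction depended on the scaling, since RELA changed by 0.03 with total counts alone, and it was not called there or with DESeq2 (−0.10). REL, which encodes c-Rel, had 17.8 and 26.0 CPM at 500 pM and 29.2 and 24.5 CPM in controls. The REL groups overlapped (log2 −0.25, adjusted p = 0.056), but REL was called lower without HL-60 replicate 2 at 500 pM (−0.59), without control replicate 2 (−0.39), without a filter on low counts (−0.27) and with all gene types (−0.28). In the annotation REL overlaps an unnamed non-coding RNA on the same strand, and the files do not say how shared reads were divided beyond RSEM's estimate.

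**Figure D2:**
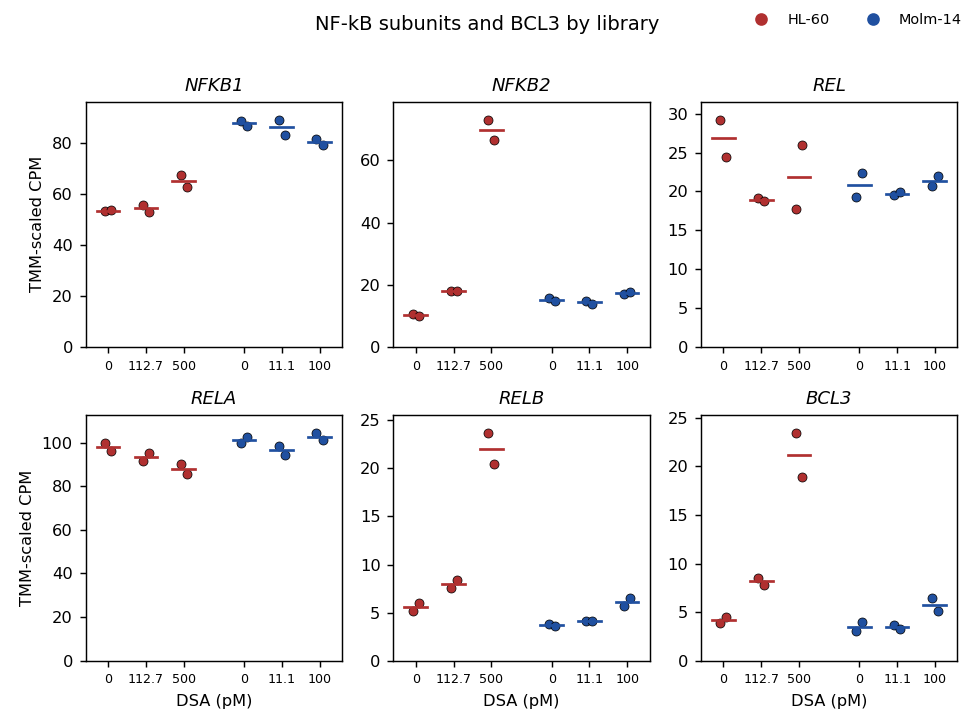
TMM-scaled CPM of the 5 NF-kB subunit genes and BCL3 in each library (points) with group means (lines), by DSA dose in pM, HL-60 in red and Molm-14 in blue. NFKB2, RELB and BCL3 climb with dose in HL-60, with NFKB2 at 66.6 and 73.1 CPM at 500 pM, while NFKB1, REL and RELA vary by under 2-fold within each line.

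The inhibitors split by class. The classical IkB genes, whose products hold dimers in the cytoplasm, changed by less than 1.5-fold in HL-60 at 500 pM. NFKBIA, which encodes IkBα and is a feedback target, had 74.5 and 68.3 CPM, against 58.8 and 60.5 CPM in controls (1.19-fold, adjusted p = 3.0e-04). NFKBIE, which encodes IkBε, rose 1.41-fold (adjusted p = 8.2e-07) and NFKBIB, which encodes IkBβ, fell by 0.25 on the log2 scale (adjusted p = 8.0e-04). The NFKBIB call was lost with total counts alone (−0.07), and the gene overlaps SIRT2 on the opposite strand, with strand use in counting not given in the sources used here.

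The atypical nuclear IkB genes, which act on p50 and p52 dimers at promoters, rose more. BCL3 had 23.4 and 19.0 CPM in HL-60 at 500 pM, against 3.91 and 4.46 CPM in controls, a 4.98-fold increase (log2 2.31 ± 0.14, adjusted p = 2.0e-11). NFKBIZ, which encodes IkBζ, had 2.06 and 1.72 CPM at 500 pM, against 0.134 and 0.170 CPM in controls, an 11.7-fold increase over few reads (adjusted p = 4.7e-09). NFKBIZ overlaps NXPE3 on the same strand.

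The TNFAIP and TNIP genes also rose. TNFAIP3, which encodes the ubiquitin editor A20, had 41.5 and 40.6 CPM at 500 pM, against 18.3 and 17.5 CPM in controls, a 2.29-fold increase (adjusted p = 1.7e-12). TNFAIP2, a TNF-induced gene of myeloid and endothelial cells, had 213.6 and 215.9 CPM, against 70.2 and 71.4 CPM, a 3.03-fold increase (adjusted p = 1.2e-16). The A20-binding partners moved less: TNIP1 rose 1.46-fold (adjusted p = 1.1e-09) and TNIP2 1.11-fold (adjusted p = 0.011). The TNIP2 call was lost without HL-60 control replicate 2 (0.13) or replicate 2 at 500 pM (0.12).

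Of the ligand genes, the interleukins and lymphotoxins rose in HL-60 while TNF did not. IL1B had 29.1 and 25.7 CPM at 500 pM, against 6.30 and 6.34 CPM in controls, a 4.31-fold increase (log2 2.11 ± 0.11, adjusted p = 2.3e-12). IL1A, which encodes the other agonist of the IL-1 receptor, had 4.49 and 4.51 CPM, against 0.214 and 0.458 CPM (12.5-fold, log2 3.65 ± 0.34). LTA and LTB encode lymphotoxins, of which the membrane heterotrimer signals through the non-canonical route. LTB had 10.9 and 9.86 CPM, against 4.18 and 4.38 CPM, a 2.41-fold increase (adjusted p = 1.4e-08).

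LTA had 1.17 and 1.26 CPM in HL-60 at 500 pM, against 0.0804 and 0.102 CPM in controls. These are 66 counts against 9, a ratio of 13.1 with an exact counting interval of 6.49 to 29.9 (95%, counting error only). TNF, the founding cytokine of its family, had 115.5 and 91.0 CPM at 500 pM and 132.7 and 94.2 CPM in controls, and the groups overlapped (log2 −0.14 ± 0.16, adjusted p = 0.44). TNF was called lower without HL-60 control replicate 2 (−0.38) and without a filter on low counts (−0.16). IL6, a cytokine target, was counted 5 and 10 times at 500 pM and 0 times in both controls. Against a floor of 3 counts per library, IL6 was at least 4.12-fold higher. G0S2 was listed at 0 in 11 of the 12 libraries and at 2 counts in HL-60 replicate 2 at 500 pM, which is under the floor.

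The adaptor genes were divided, with TRAF1 and BIRC3 higher and BIRC2 and TRAF2 lower. TRAF1, an inducible adaptor of TNF receptors, had 12.7 and 12.5 CPM in HL-60 at 500 pM, against 1.37 and 1.51 CPM in controls, an 8.68-fold increase (log2 3.12 ± 0.14, adjusted p = 5.4e-13). BIRC3, which encodes cIAP2, had 14.2 and 13.8 CPM, against 4.32 and 4.75 CPM, a 3.06-fold increase (adjusted p = 3.0e-09). Its neighbour BIRC2, which encodes cIAP1, had 23.0 and 22.1 CPM, against 27.9 and 25.7 CPM, and fell by 0.25 on the log2 scale (adjusted p = 0.0018). TRAF2, the partner of both cIAPs, fell by 0.28 (adjusted p = 9.8e-05). Neither fall was called with total counts alone, where BIRC2 changed by −0.07 and TRAF2 by −0.10.

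Surface and effector genes held the largest fold increase of a member with over 1 CPM in controls. ICAM1, the adhesion molecule bound by leukocyte integrins, had 31.4 and 30.2 CPM in HL-60 at 500 pM, against 2.92 and 1.87 CPM in controls, a 13.4-fold increase (log2 3.74 ± 0.11, adjusted p = 1.0e-15). CD40, a TNF receptor family member that signals to NF-kB by both routes, had 3.51 and 3.93 CPM, against 0.268 and 0.322 CPM, a 12.3-fold increase (adjusted p = 4.8e-09). IER3, a stress-response gene, had 14.6 and 10.2 CPM, against 2.44 and 1.56 CPM (6.31-fold, adjusted p = 2.8e-10). PTGS2, which encodes the prostaglandin synthase COX-2, had 5.76 and 3.25 CPM, against 1.90 and 1.54 CPM (2.56-fold, adjusted p = 1.3e-05). In each of these genes both treated libraries lay above both controls.

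CD83, a marker of activated dendritic cells, rose 1.66-fold in HL-60 at 500 pM (adjusted p = 5.1e-08), and PLAU, which encodes urokinase, rose 1.68-fold (adjusted p = 1.2e-10). SOD2, the mitochondrial superoxide dismutase and a classical NF-kB target, went the other way. It had 70.7 and 74.8 CPM, against 105.8 and 102.2 CPM in controls, a fall of 0.51 on the log2 scale (adjusted p = 5.5e-09). SOD2 overlaps ACAT2 and WTAP on the opposite strand, and its identifier in the files was matched to the current annotation by its transcripts.

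**Figure D3:**
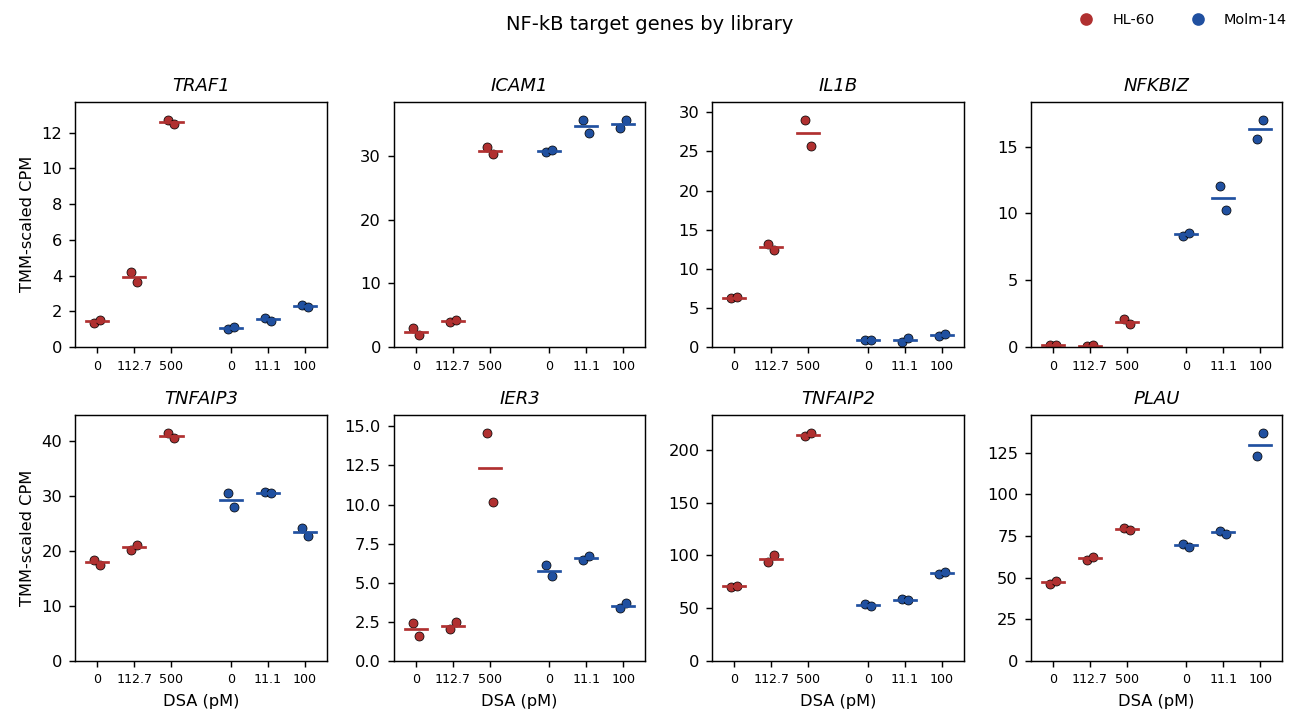
TMM-scaled CPM of 8 members in each library (points) with group means (lines), by DSA dose in pM, HL-60 in red and Molm-14 in blue. ICAM1 stands at 1.87 to 4.20 CPM in HL-60 up to 112.7 pM and at 30.2 and 31.4 CPM at 500 pM, close to the 30.6 and 30.9 CPM of untreated Molm-14, while TNFAIP3 and IER3 are lower in Molm-14 at 100 pM than in its controls.

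Markers of maturation moved in the same libraries. The 6 mature monocyte or macrophage markers summed to 55.8 and 54.2 CPM in HL-60 at 500 pM, against 3.19 and 2.82 CPM in controls, with MRC1 and FCGR3A at 0 in both libraries at 500 pM. All 3 of the tested markers (CD14 among them) rose over 2-fold. The 7 mature granulocyte markers summed to 145 and 144 CPM, against 87.1 and 86.7 CPM, and the 5 promyelocytic granule markers fell to 6590 and 6610 CPM, against 18400 and 18600 CPM. In Molm-14 the monocyte markers summed to 29.2 and 29.5 CPM at 100 pM, against 10.6 and 9.35 CPM in controls, with CSF1R the 1 of 3 tested markers that rose. The granulocyte markers summed to 167 and 172 CPM, against 83.2 and 82.3 CPM, and the fibroblast or endothelial markers to 126 and 127 CPM, against 55.8 and 54.7 CPM. The promyelocytic granule markers summed to 4230 and 4110 CPM in Molm-14 at 100 pM, against 3540 and 3650 CPM in controls. This list did not move as a whole. Of its 5 markers 2 rose, 1 fell and 2 did not pass, with a median of 0.07 on the log2 scale. Summed T cell markers (5 genes) were at 4.54 and 4.30 CPM in HL-60 at 500 pM, against 0.536 and 0.661 CPM, and B cell markers (4 genes, MS4A1 at 0) at 9.50 and 8.32 CPM, against 3.91 and 3.80 CPM. The 5 fibroblast or endothelial markers summed to 42.3 and 41.7 CPM there, against 9.19 and 8.67 CPM. Only 2 T cell, 2 B cell and 2 fibroblast or endothelial markers passed the filter on low counts. All of these rose over 2-fold in HL-60 at 500 pM, against 16.5% of all genes tested. The part of the markers in the changes of the NF-kB genes was not tested, and neither was that of the rise in mitochondrial counts.

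In Molm-14 cells at 100 pM DSA, more members rose than fell, nearly all by under 2-fold. Of the 30 tested, 13 rose (43.3%), against 22.9% of all genes tested, and 4 fell (13.3%), against 21.8% of all genes. The median was 0.19 over the members, or 0.18 without IL1A, which had a single read in the 4 libraries, and 0.00 over all genes. Only TRAF1 rose over 2-fold (3.3%), against 3.30% of all genes, so the share of large increases equalled the background. TRAF1 had 2.35 and 2.26 CPM at 100 pM, against 1.01 and 1.13 CPM in controls (2.14-fold, log2 1.10 ± 0.19, adjusted p = 1.1e-04).

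The other increases called in Molm-14 at 100 pM were below 2-fold. NFKBIZ had 15.6 and 17.0 CPM at 100 pM, against 8.34 and 8.52 CPM in controls, a 1.93-fold increase (adjusted p = 1.2e-06). PLAU had 122.9 and 136.6 CPM, against 70.01 and 68.6 CPM, a 1.87-fold increase (adjusted p = 2.0e-11). RELB had 5.67 and 6.47 CPM, against 3.82 and 3.56 CPM, and BCL3 had 6.45 and 5.09 CPM, against 3.03 and 4.004 CPM, each a 1.64-fold increase. TNFAIP2 rose 1.59-fold and CD83 1.42-fold, and BIRC2 rose 1.16-fold (adjusted p = 0.0057). IL1B had 1.38 and 1.69 CPM, against 0.853 and 0.837 CPM (1.81-fold, adjusted p = 0.0060), and its call was lost without replicate 2 at 100 pM (0.71).

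Several Molm-14 calls were close to the threshold. NFKB2 had 17.2 and 17.8 CPM at 100 pM, against 15.7 and 14.7 CPM in controls, a 1.15-fold increase (adjusted p = 0.029) that was not called by DESeq2 or without any one of 3 of the 4 libraries. NFKBIA, ICAM1 and PTGS2 rose 1.12-fold, 1.14-fold and 1.36-fold (adjusted p = 0.031, 0.0498 and 0.027), and DESeq2 called none of the 3. ICAM1 and PTGS2 were each lost without any one of the 4 libraries, with changes of 0.16 to 0.21 for ICAM1 and 0.36 to 0.53 for PTGS2.

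Among the 4 members that fell in Molm-14 at 100 pM were a feedback gene and a stress gene that rose in HL-60. TNFAIP3 had 24.2 and 22.8 CPM, against 30.6 and 28.1 CPM in controls, a fall of 0.32 on the log2 scale (adjusted p = 2.6e-04). IER3 had 3.35 and 3.67 CPM, against 6.10 and 5.41 CPM, a fall of 0.71 (adjusted p = 0.0048), and the call was lost without Molm-14 control replicate 1 (−0.63). TRAF2 fell by 0.29 (adjusted p = 9.4e-04). NFKB1 fell by 0.13 (adjusted p = 0.030), a call that was lost without any one of the 4 libraries, with values of −0.15 to −0.11. RELA and REL did not pass, at 0.02 and 0.03 on the log2 scale.

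At the lower dose of each line fewer members passed the test. In HL-60 at 112.7 pM, 9 of the 30 members rose (30%), against 24.2% of all genes tested, and 6 fell (20.0%), against 27.4%. The members' median was 0.12, against 0.00 over all genes. TRAF1 and IL1B were the members that rose over 2-fold (6.7%), against 5.57% of all genes. TRAF1 had 4.19 and 3.66 CPM, a 2.69-fold increase over controls, and IL1B had 13.2 and 12.4 CPM, a 2.01-fold increase. NFKB2 rose 1.75-fold (18.1 and 17.9 CPM), BCL3 1.92-fold, ICAM1 1.78-fold, RELB 1.44-fold, TNFAIP2 1.37-fold, TNFAIP3 1.16-fold, and PLAU rose by 0.39 on the log2 scale.

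Some of the genes with the largest changes at 500 pM were not called at 112.7 pM. NFKBIZ had 0.0482 and 0.168 CPM, IER3 2.02 and 2.45 CPM and PTGS2 1.69 and 1.48 CPM in HL-60 at 112.7 pM, all overlapping the controls. CD40 had 0.385 and 0.772 CPM (2.01-fold, adjusted p = 0.051), and was called higher with RLE factors, total counts alone, no filter or a replicate block, and without replicate 1 at 112.7 pM. The members that fell at 112.7 pM were REL, NFKBIA, NFKBIB, BIRC2, TRAF2 and SOD2, by 0.14 to 0.49 on the log2 scale. REL had 19.2 and 18.7 CPM there, below both controls (adjusted p = 0.0020). NFKBIA was lost without any one of the 4 libraries (−0.16 to −0.12), and DESeq2 called only 3 members lower.

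In Molm-14 at 11.1 pM no member was called in either direction by edgeR, against 0.968% of all genes higher, 0.223% lower and 0.00745% higher over 2-fold. At an unadjusted p under 0.05, 5 members were higher and 1 lower, and DESeq2 and limma-voom also called 0. The share of all genes at an unadjusted p was not computed, so the 5 and the 1 cannot be set against a background. NFKBIZ was nearest, at 12.1 and 10.3 CPM, against 8.34 and 8.52 CPM in controls (log2 0.41 ± 0.11, adjusted p = 0.11), and it was called when only the groups compared were fitted and when low counts were not filtered.

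Between the 2 doses of HL-60, 24 members were higher at 500 pM than at 112.7 pM (80.0%), against 25.8% of all genes tested, and SOD2 was lower (3.3%), against 26.8%. The median was 1.04 over the members and 0.00 over all genes, and 15 members were higher over 2-fold (50%), against 8.14% of all genes. LTA is among the 24 and the 15, and it entered the test only through the libraries at 500 pM. NFKB2 was 3.86-fold, ICAM1 7.54-fold, IER3 5.38-fold and LTB 2.49-fold higher at 500 pM, with no overlap of the libraries. Between the 2 doses of Molm-14, 10 members were higher at 100 pM than at 11.1 pM (33.3%), against 19.6% of all genes, and TNFAIP3 and IER3 were lower (6.7%), against 18.5%. These values share libraries with the comparisons against control.

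The 2 lines were compared at their nearest doses, 112.7 pM for HL-60 and 100 pM for Molm-14, by testing the difference of their changes against control. These doses differ slightly, and the lines differ in sensitivity and medium. The difference was positive for 4 members (13.3%), against 16.6% of all genes tested, and negative for 7 (23.3%), against 21.1%, so the members' shares were near the background. TNFAIP3 differed by 0.53 ± 0.09, with 20.3 and 21.1 CPM in treated HL-60 against 18.3 and 17.5 CPM in its controls, where Molm-14 showed the fall given above (adjusted p = 1.1e-04). NFKB2 differed by 0.61 ± 0.10 (adjusted p = 1.4e-04), the larger increase being in HL-60.

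BIRC2 had the smallest p of the members, differing by −0.69 ± 0.09 (adjusted p = 7.7e-06). It had 19.8 and 18.8 CPM in HL-60 at 112.7 pM, against 27.9 and 25.7 CPM in its controls, and 35.9 and 36.6 CPM in Molm-14 at 100 pM, against 31.3 and 30.99 CPM. PLAU differed by −0.52 ± 0.07 (adjusted p = 1.0e-05), the larger increase being in Molm-14. IER3 differed by 0.94 and ICAM1 by 0.65, but both calls were lost without HL-60 control replicate 2 (IER3 0.61 and ICAM1 0.29) or HL-60 replicate 2 at 112.7 pM (IER3 0.78 and ICAM1 0.59), and that of IER3 also without Molm-14 control replicate 1 (0.85) or replicate 1 at 100 pM (0.88). For TRAF1, BCL3, RELB and IL1B the difference did not pass, with values of 0.33 ± 0.26, 0.23 ± 0.22, −0.20 ± 0.18 and 0.16 ± 0.27. A p that missed the threshold does not show that the lines responded alike.

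**Figure D4:**
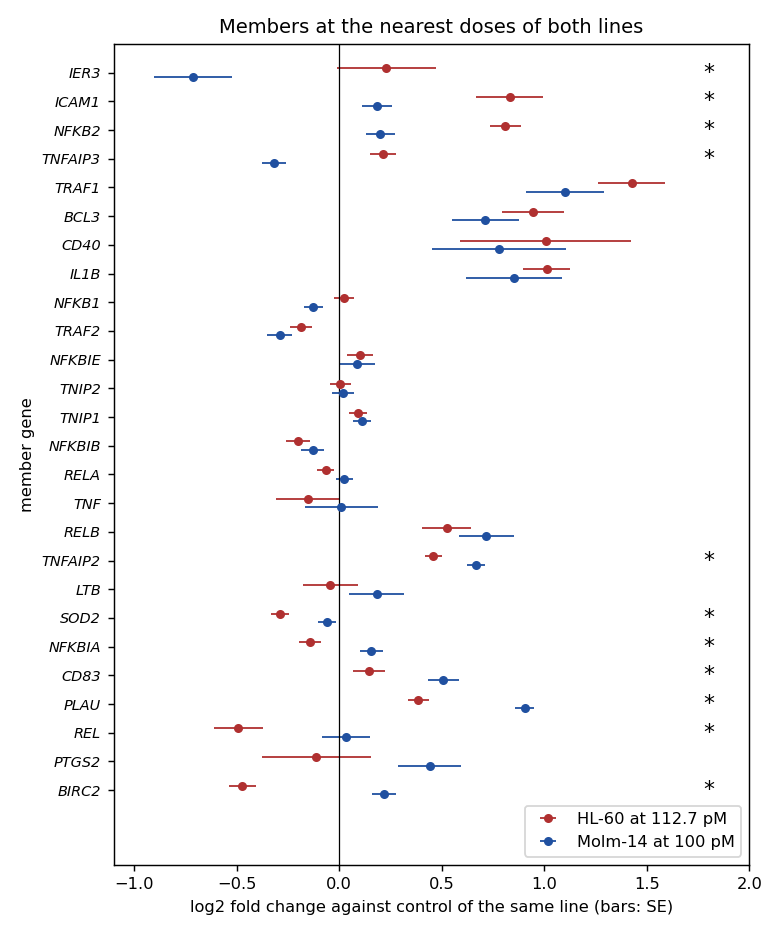
Log2 fold change against control (points, bars are SE) for 26 members in HL-60 at 112.7 pM (red) and Molm-14 at 100 pM (blue), ordered by the difference between lines, with a star where that difference had an adjusted p under 0.05. IER3 and TNFAIP3 lie below 0 in Molm-14 only, and BIRC2 lies below 0 in HL-60 only. IL1A, LTA, BIRC3 and NFKBIZ are not drawn because at least 1 of the lines had few counts.

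The untreated lines were also compared. Before DSA, 14 members were higher in HL-60 than in Molm-14 (46.7%), against 43.9% of all genes tested, and 11 were lower (36.7%), against 40.0%. These shares of the members were near the background. By deposited TPM, which are scaled by gene length and so allow genes to be compared, TNF led untreated HL-60 at 85.3 ± 21.3 TPM (SD, n = 2), followed by NFKBIA, SOD2 and RELA at 65.7, 65.4 and 58.1 TPM, of which NFKBIA and SOD2 were not separated by their libraries. Untreated Molm-14 was led by SOD2, RELA and NFKBIA at 62.9, 58.4 and 48.5 TPM, each separate from the next, with TNF at 34.4 TPM. NFKB2, RELB and REL stood low in both lines, at 5.17, 4.14 and 3.50 TPM in HL-60 and 7.80, 2.49 and 3.08 TPM in Molm-14.

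Single members stood far apart between the untreated lines. ICAM1 had 2.92 and 1.87 CPM in untreated HL-60 and 30.6 and 30.9 CPM in untreated Molm-14 (log2 −3.75 ± 0.11), and NFKBIZ was at 0.134 and 0.170 CPM against 8.34 and 8.52 CPM (log2 −5.72 ± 0.22). PTGS2, IER3 and CD40 were also lower in untreated HL-60, at −2.18, −1.57 and −1.16 on the log2 scale. IL1B was 7.46-fold, NFKBIE 3.21-fold, TNF 2.33-fold and TRAF2 2.07-fold higher in untreated HL-60. BIRC3 was counted 441 times in HL-60 controls and 5 times in Molm-14 controls, a ratio of 59.7 with an exact counting interval of 25.4 to 185. IL1A was at 0 in both Molm-14 controls and averaged 0.336 CPM in HL-60 controls, at least 3.65-fold higher against a floor of 3 counts per library.

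**Figure D5:**
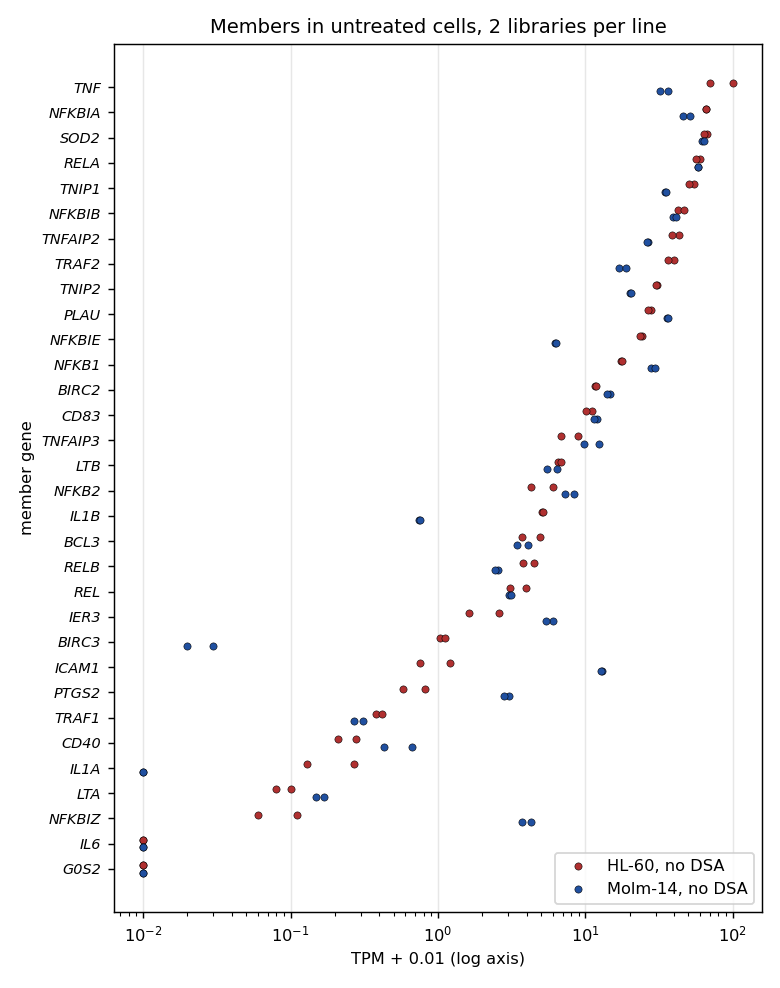
Deposited TPM plus 0.01 on a log axis for all 32 members in the 2 untreated libraries of HL-60 (red) and Molm-14 (blue), ordered by the HL-60 mean. Most members lie close together in both lines, while ICAM1, NFKBIZ and PTGS2 stand higher in Molm-14 and IL1B, BIRC3 and IL1A stand higher in HL-60.

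Outside the members, receptors that signal to NF-kB rose or did not pass the test at the high doses against control. Of 22 listed receptors and co-receptors, 21 were tested, and 14 rose (66.7%) and 0 fell in HL-60 at 500 pM, against 35.8% and 37.8% of all genes. In Molm-14 at 100 pM 11 rose (52.4%) and 0 fell, against 22.9% and 21.8% of all genes. At an unadjusted p under 0.05, where the share of all genes was not computed, edgeR held 1 receptor lower in HL-60 and 2 in Molm-14. DESeq2 called 0 lower in either line and limma-voom called 1 lower in each. NOD2, a sensor of bacterial peptidoglycan, had 5.05 and 5.59 CPM in HL-60 at 500 pM, against 0.241 and 0.203 CPM in controls (log2 4.59 ± 0.22). It had 12.3 and 11.6 CPM in Molm-14 at 100 pM, against 6.16 and 6.57 CPM (log2 0.91 ± 0.12). CD14, the endotoxin co-receptor, and TNFRSF1B, which encodes TNF receptor 2, rose by 4.45 and 1.58 on the log2 scale in HL-60, and TNFRSF10B, which encodes a TRAIL death receptor, rose 2.47-fold. TLR4, the endotoxin receptor, rose by 1.21 in Molm-14.

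The kinases and adaptors between receptor and IkB were divided. Of 25 listed genes, 12 rose (48.0%) and 11 fell (44%) in HL-60 at 500 pM, against 35.8% and 37.8% of all genes, with a median of −0.02. In Molm-14 at 100 pM 7 rose (28.0%) and 1 fell (4.0%), against 22.9% and 21.8%. Of the IKK genes in HL-60, CHUK, which encodes IKKα, fell by 0.60, with 37.5 and 36.5 CPM at 500 pM, against 56.9 and 54.8 CPM in controls. IKBKG, which encodes NEMO, rose by 0.45, and IKBKB, which encodes IKKβ, fell by 0.16 (adjusted p = 0.026), although its libraries overlapped, at 30.2 and 26.8 CPM, against 29.5 and 33.3 CPM in controls. In HL-60 at 500 pM 5 of the 25 rose over 2-fold (20.0%), near the 16.5% of all genes tested. They were IRAK2, TICAM1, TIRAP and MYD88 of Toll and IL-1 receptor signalling (2.42, 2.05, 1.54 and 1.05) and TRAF5 (1.51). IRAK2 had 8.80 and 8.23 CPM in HL-60 at 500 pM, against 1.72 and 1.49 CPM in controls, and 1.799 and 1.69 CPM in Molm-14 at 100 pM, against 0.6003 and 0.568 CPM. MAP3K14, which encodes NIK, rose by 0.34 in HL-60, and its change in Molm-14 was 0.04.

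Further target genes of NF-kB were mostly higher in HL-60 at 500 pM. Of 28 listed, 25 were tested, and 19 rose (76.0%) and 4 fell (16.0%) there, against 35.8% and 37.8% of all genes. In Molm-14 at 100 pM 11 rose (44%) and 2 fell (8.0%), against 22.9% and 21.8%, and 12 did not pass. MMP9, the gelatinase, had 55.7 and 55.8 CPM in HL-60 at 500 pM, against 5.01 and 4.78 CPM in controls (log2 3.51 ± 0.08), and BCL2A1, an anti-apoptotic BCL2 relative, rose by 1.79 in HL-60 and by 1.18 in Molm-14. NFKBID, which encodes the nuclear inhibitor IkBNS, and CD69, an early activation antigen, rose by 1.61 and 2.84 in HL-60. A further list held genes for linear ubiquitin, deubiquitinases and other ubiquitin enzymes and binding proteins, 11 of them tested. Of these, 4 rose (36.4%) and 6 fell (54.5%) in HL-60 at 500 pM. The shares of all genes were 35.8% and 37.8%, so the share that rose was near the background. The deubiquitinase gene CYLD, a brake on the pathway, rose by 1.24 there and by 0.69 in Molm-14 at 100 pM. Of the 10 genes listed for the route from DNA damage to NF-kB, 2 rose (20.0%) and 5 fell (50%) in HL-60, against 35.8% and 37.8% of all genes. In Molm-14 4 rose (40.0%) and 4 fell (40.0%), against 22.9% and 21.8%, and none moved by over 2-fold in either line. The list does not separate genes that pass the signal on from those that limit it, and the counts give no direction of signalling.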

How the data were processed

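RNA of HL-60 and Molm-14 cells was sequenced in 12 libraries, 2 per group. Per the study's methods and the submitters' processing notes, the authors trimmed reads with Trim Galore 0.60, aligned them with STAR 2.7 to hg38 with GENCODE release 31 and estimated expression with RSEM 1.31. The deposited files hold RSEM expected counts, which the authors left unnormalized, and TPM, which the authors' RSEM run scaled by gene length and to each library's total. Strand use in counting is not stated by the labels or methods.

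The expected counts were rounded and restricted to protein-coding genes of GENCODE 44 level 1 or 2. Of 60754 identifiers, 60261 matched GENCODE 44, and 19 retired ones, SOD2 among them, were matched through their transcripts. Genes were filtered with filterByExpr (at least 10 counts at the median library size, which is 0.293 CPM, in at least 2 libraries), which left 13429 genes. They were tested with edgeR 4.0.16 (R 4.3.3), TMM scaling, 1 mean per group over all 12 libraries and Benjamini-Hochberg adjustment over all genes. The study's methods used limma-voom, run here as an alternative (limma 3.58.1) with DESeq2 1.42.0, other scalings and filters, a replicate block and each library left out. Floors and intervals cover counting error only.

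All 32 members were accounted for. By rule, library values were given for the 5 subunits. They were also given for members called with a change of over 2-fold in any of the 4 comparisons of DSA with control. For all of these genes the library values cover HL-60 controls and HL-60 at the high dose, and other groups only for some. Of other lists, genes past both limits at a high dose were named, at most 4 with the smallest p per list and line. The library values of NFKBIA, TNF, BIRC2, SOD2 and PLAU, and the genes TRAF5, CHUK, IKBKB, IKBKG, MAP3K14, HOXA9, AZU1 and CTSG, fall outside the rule and were chosen after their values were seen. The members and lists were chosen with earlier results of these data known. The result of 1 list of cell type markers is not reported here.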

Additional observations from a re-analysis of the deposited data

Results flagged for a closer look

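Members whose change differed between the lines at the nearest doses (HL-60 at 112.7 pM against Molm-14 at 100 pM, each relative to its own controls, edgeR adjusted p under 0.05) were NFKB2 (0.61), TNFAIP3 (0.53), ICAM1 (0.65) and IER3 (0.94), where the change was higher in HL-60. They were REL (−0.53), NFKBIA (−0.30), TNFAIP2 (−0.21), BIRC2 (−0.69), CD83 (−0.36), SOD2 (−0.23) and PLAU (−0.52), where it was lower in HL-60. Values are differences of log2 fold changes. The calls of REL (without any one of 4 libraries, −0.50 to −0.40), TNFAIP2 (with DESeq2, RLE factors or without either of 2 libraries, −0.18 to −0.15), CD83 (with DESeq2 or without any one of 3 libraries, −0.32 to −0.28) and SOD2 (with DESeq2 or without HL-60 replicate 2 at 112.7 pM, −0.18 to −0.17) were lost under those alternatives, as were those of ICAM1 and IER3 described above. The share of members in each direction was near that of all genes tested, as given above.

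At the high doses 4 members moved in opposite directions, with both treated libraries beyond both controls in each line. On the log2 scale NFKB1 changed by 0.28 in HL-60 at 500 pM and by −0.13 in Molm-14 at 100 pM, and TNFAIP3 by 1.20 in HL-60 and −0.32 in Molm-14. BIRC2 changed by −0.25 in HL-60 and 0.22 in Molm-14, and IER3 by 2.66 in HL-60 and −0.71 in Molm-14. The doses differ, and these differences between the lines were not tested at the high doses.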

How the results depend on the processing

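Of 3202 gene values recomputed under the alternatives, 3041 kept their side of the threshold, 106 lost a call, 54 gained one and 1 reversed. A reversal was counted only where the main or the alternative value was called, so any sign change between uncalled values lies among the 3041. The reversed value was RELA in HL-60 at 500 pM, at 0.03 with total counts alone. With total counts alone, which leaves the composition of each library uncorrected, members lower numbered 1 in HL-60 at 500 pM, 3 in HL-60 at 112.7 pM and 0 between the HL-60 doses, and 4 rose over 2-fold at 112.7 pM. Under that scaling the calls over all genes in HL-60 at 500 pM were 6305 higher and 3378 lower (65.1% higher), against 4802 and 5076 (48.6%) with TMM, and the share higher was 61.1% against 46.9% at 112.7 pM and 69.6% against 49.1% between the HL-60 doses. With RLE factors the share of positive line differences was 55.5%, against 44.1%. With DESeq2, 3 members were lower in HL-60 at 112.7 pM and 4 had a negative line difference. Without a filter on low counts, or when only the groups compared were fitted, 1 member (NFKBIZ) rose in Molm-14 at 11.1 pM. Members lower between the HL-60 doses numbered 2 without the filter and 2 with all gene types. The cause was not tested.

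Leaving out each library in turn gave 2 to 3 members lower in Molm-14 at 100 pM and 1 to 2 higher over 2-fold there. It gave 9 to 10 members higher in Molm-14 at 100 pM and 22 to 24 in HL-60 at 500 pM. Members lower between the HL-60 doses numbered 1 to 2, with 2 without HL-60 replicate 1 at 500 pM, and positive line differences numbered 2 to 4, with 2 without HL-60 control replicate 2 or HL-60 replicate 2 at 112.7 pM. With the replicate number as a block, 23 members rose and 5 fell in HL-60 at 500 pM and 13 rose and 4 fell in Molm-14 at 100 pM. Same-numbered libraries did not deviate together (correlations of −0.07 to 0.08), so the numbers were not taken to pair the samples. Depth limited IL6, G0S2 and, in Molm-14, IL1A, BIRC3 and LTA, which had 10 counts or fewer in every library concerned.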
